A study of Mus musculus with 16 samples.

Results

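Mitochondrial fusion and fission genes of mouse gastrocnemius were chosen by symbol, as 10 genes of the 21923 in the deposited table: Mfn1, Mfn2, Opa1, Oma1, Yme1l1, Dnm1l, Fis1, Mff, Mief1, and Mief2. Gastrocnemius is a muscle of the calf, and its poly(A) RNA was sequenced for 16 mice as 1 library per mouse, 4 per group. Mice of the NOR group were tumor-free, had PBS put under the skin instead of cells, and, like the CAC and KD mice, were given PBS into the abdomen every day from day 9. In the CAC group tumors grew without treatment. AM mice, whose libraries are titled T, carried tumors and were injected daily from day 9 with amiloride, a diuretic that also lowers exosome release, at 2 mg/kg. KD mice carried tumors grown from cells in which Rab27a and Rab27b, GTPases of exosome secretion, were knocked down by shRNA. In the 3 tumor groups, replicates 1 and 2 carry the label C57BL/6 and received LLC cells, from a Lewis lung carcinoma, while BALB/c is the label of replicates 3 and 4, which received CT26 colon carcinoma cells, so strain and tumor line change together. The NOR mice carry the same pair of strain labels in the same order, without a tumor. All muscles were taken on day 30. The question behind the groups was whether amiloride or fewer tumor exosomes alter muscle wasting, and here it is asked of the transcripts that set the shape of mitochondria.

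Mitochondria fuse and divide all the time, and the balance between both sets whether they form long networks or short fragments. In fusion, the mitofusins Mfn1 and Mfn2 join the outer membranes, and the dynamin-like GTPase Opa1 joins the inner membranes. Opa1 protein is cut by a pair of inner membrane proteases, Oma1, which acts under stress, and Yme1l1, which acts in resting cells. In fission, the dynamin-related GTPase encoded by Dnm1l is drawn from the cytosol to the outer membrane by the adaptors Mff, Mief1, and Mief2, with Fis1 as a further outer membrane protein. In muscle, some of these proteins are needed to keep fibre mass and mitochondrial quality.

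The libraries held 35913190 to 61032708 reads on genes, and each of the 10 genes had between 578 counts (the lowest, for Oma1) and 26489 counts (the highest, for Mfn2) in every library. All 10 passed the filter on low counts in every comparison. The spread between mice was well above counting error, since the mean squared difference between libraries of a group, in units of the variance from counting alone, was at least 66.6. The 8 skeletal muscle markers were detected in all 16 libraries and summed to between 45956 CPM (CAC replicate 3) and 125836 CPM (NOR replicate 1), where CPM stands for counts scaled by library size with TMM. The B cell markers summed to at most 3.73 CPM in 5 libraries (NOR replicate 1, CAC replicates 1 and 4, and KD replicates 2 and 3) and to 38.1 to 472 CPM in the other 11. KD replicate 3 had 0 counts on all 4 Y-linked markers, which summed to 111 to 174 CPM in the other 15 libraries, and the labels and the study's supplement describe BALB/c mice of both sexes, while its main methods name male mice. The knockdown was made in the tumor cells, so Rab27a (9.03 to 15.6 CPM in KD and 15.4 to 30.0 CPM in CAC muscle) and Rab27b (0.26 to 2.19 CPM over all 16 libraries) in muscle do not check it.

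The genes lie apart from each other in the genome. In GRCm38, the fusion genes lie at chr3:32529465-32579239 on the plus strand (Mfn1, ENSMUSG00000027668), chr4:147873599-147904704 on the minus strand (Mfn2, ENSMUSG00000029020), and chr16:29579334-29654884 on the plus strand (Opa1, ENSMUSG00000038084). The protease genes lie at chr4:103313812-103371868 (Oma1, ENSMUSG00000035069) and chr2:23156369-23199260 (Yme1l1, ENSMUSG00000026775), both on the plus strand. Dnm1l (ENSMUSG00000022789) lies at chr16:16312230-16358959 on the minus strand, and Fis1 (ENSMUSG00000019054) at chr5:136953275-136966234 on the plus strand. The adaptor genes lie on the plus strand at chr1:82724890-82752394 (Mff, ENSMUSG00000026150), chr15:80234018-80253371 (Mief1, ENSMUSG00000022412), and chr11:60728398-60732951 (Mief2, ENSMUSG00000018599). Of the 31-base words in the transcripts of Dnm1l, 9.51% also occur in another gene, with the processed pseudogene Gm13719 sharing most of them, so Dnm1l counts are less certain than the others. The share was at most 2.71% for each of the other genes, and Mief1 shares 213 exon bases with the overlapping gene AC140267.1 on the same strand. Mff and Dnm1l overlap transcripts of the opposite strand (C430014B12Rik over 195 and Gm49521 over 243 exon bases), and the strand setting of the counting is not given in the sources used here.

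Upstream sequences are shown for Opa1, Oma1, and Mief2, whose CAC and NOR values did not overlap by CPM. They are RefSeq promoter windows on GRCm38.p6, which hold an entry for 10 of the 10 genes with 15 start sites, and run to the base before the annotated gene. Then 5 short motifs were searched on both strands of the 250 bases before each start site, and motif letters are in capitals. The windows are chr16:29579084-29579333 (Opa1), chr4:103313596-103313811 (Oma1), and chr11:60728148-60728397 (Mief2), all on the plus strand.
Opa1: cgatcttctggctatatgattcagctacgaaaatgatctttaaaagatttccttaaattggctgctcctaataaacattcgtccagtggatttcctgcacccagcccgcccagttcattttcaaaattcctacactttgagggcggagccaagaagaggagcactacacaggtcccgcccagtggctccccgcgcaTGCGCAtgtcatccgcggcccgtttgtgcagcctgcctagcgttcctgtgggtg
Oma1: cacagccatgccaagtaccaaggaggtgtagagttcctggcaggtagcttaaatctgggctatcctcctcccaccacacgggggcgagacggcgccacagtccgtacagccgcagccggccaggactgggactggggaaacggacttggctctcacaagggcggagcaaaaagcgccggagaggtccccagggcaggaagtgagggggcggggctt
Mief2: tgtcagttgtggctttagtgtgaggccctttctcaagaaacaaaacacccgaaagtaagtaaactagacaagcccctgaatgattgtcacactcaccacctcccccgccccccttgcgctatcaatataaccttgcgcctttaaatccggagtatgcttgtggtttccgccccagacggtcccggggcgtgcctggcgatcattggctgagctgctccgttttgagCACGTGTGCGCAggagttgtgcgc

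The capitals in Opa1 mark the NRF1 core TGCGCA at -54 to -49 from the start site. In Mief2 they mark the E-box CACGTG at -24 to -19, directly followed by the NRF1 core at -18 to -13, so the run of capitals holds both. Oma1 holds none of the motifs searched. NRF1 is a factor known for nuclear genes of the mitochondria, and its core was found for 3 of the 10 genes (Fis1, Mief2, and Opa1), and in 6.43% of 32851 promoters of the same length. The ETS core CCGGAAG was found for 4 genes (Fis1, Mfn1, Mief1, and Yme1l1) and in 6.91% of promoters, and the E-box for Mief2 alone and in 6.02%. The ERR half-site AAGGTCA (4.08% of promoters) and the FOXO core TGTTTAC (3.17%) were found for 0 of the 10 genes. A match is a description of letters and no binding was measured.

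Per unit of length, Mfn2 had the highest mean of the 10 transcripts in each group and Mief1 the lowest. In NOR muscle the level of Mfn2 was 152 ± 10.6 FPKM (SD, n = 4), followed by Fis1 with 120.3 ± 8.28 and Mfn1 with 77.0 ± 7.23 FPKM. FPKM is the deposited count scaled for gene length and for the reads of the library, and levels of different genes compare only on this scale. Mff (43.5 ± 3.52 FPKM), Mief2 (35.4 ± 2.46), and Opa1 (28.1 ± 1.59) formed the middle of the order. Dnm1l, the fission GTPase itself, was lower at 15.99 ± 2.25 FPKM, the proteases Oma1 and Yme1l1 were at 12.3 ± 0.513 and 11.7 ± 1.38 FPKM, and Mief1 was at 5.80 ± 0.0804 FPKM. Of neighbours in the NOR order, only Oma1 and Yme1l1 overlapped between mice.

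The order was the same in CAC muscle except around the proteases. Yme1l1 (14.1 ± 0.999 FPKM) and Dnm1l (13.7 ± 1.62 FPKM) overlapped there, and Oma1 stood below both at 9.52 ± 0.728 FPKM, above Mief1 at 7.02 ± 1.12 FPKM. Mfn2 with Fis1 and Mief2 with Opa1 also overlapped in CAC. In AM muscle Mief2 overlapped Opa1, and Yme1l1 overlapped Oma1, which overlapped Mief1. In KD muscle the overlaps were Mfn2 with Fis1, Mff with Mief2, Mief2 with Opa1, Dnm1l with Yme1l1, and Yme1l1 with Oma1. Over all 16 libraries, the highest CPM of a gene was between 1.47 (Yme1l1) and 2.29 (Oma1) times its lowest.

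**Figure D1:**
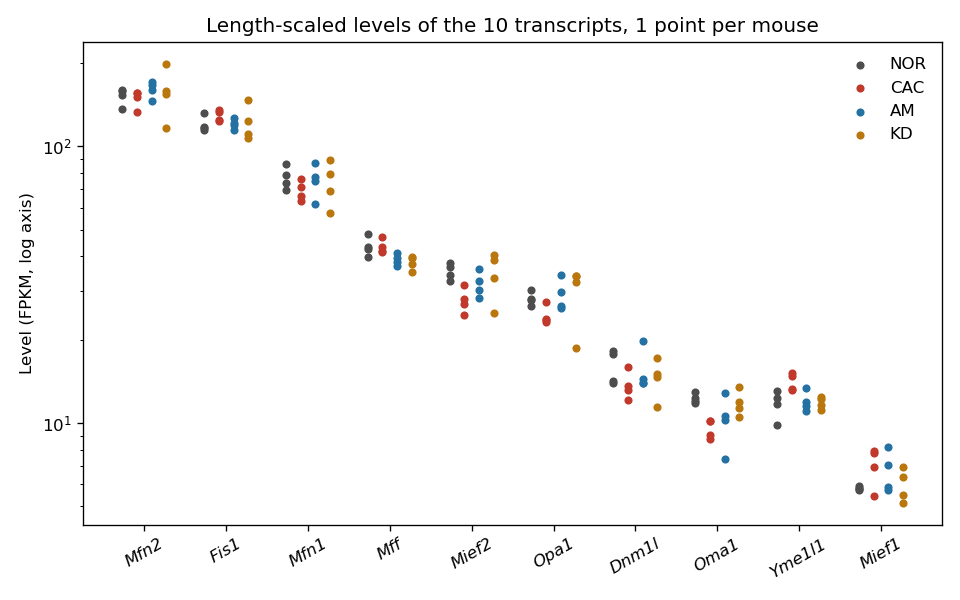
Deposited FPKM (log axis) of the 10 transcripts, 1 point per mouse and 1 colour per group, ordered by the NOR mean. Mfn2 and Fis1 lie at 108 to 198 FPKM in the 16 mice and Mief1 lies between 5.15 and 8.18 FPKM.

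In CAC relative to NOR muscle, 1 of the 10 transcripts passed the test: Oma1 fell by 28.8%. The fit gave differences between -0.49 (Oma1) and 0.15 (Yme1l1) on the log2 scale, with 8 genes lower and 2 higher (Yme1l1 and Mief1) and a median of -0.22, against a median of 0.01 over all 14666 genes tested. A gene passed at an FDR (Benjamini-Hochberg over all genes tested, edgeR's quasi-likelihood test) of at most 0.05, which 14.0% of all genes did in either direction and 6.17% did as lower in CAC, so 1 of 10 is near that background. None of the 10 (0 genes) also reached the study's limit of a 1.5-fold difference, which 9.45% of all genes did. At an unadjusted p below 0.05, 3 of the 10 (Opa1, Oma1, and Mief2) differed, against 29.1% of all genes. By CPM, the same 3 genes had no overlap between the groups, all lower in CAC, against 23.3% of all genes in either direction and 10.8% as lower. By FPKM, Oma1 and Mief2 again had none and Opa1 overlapped. On that scale Yme1l1 was higher in every CAC mouse (13.14 to 15.12 FPKM) than in every NOR mouse (9.84 to 13.06 FPKM), and the share of all genes was not counted.

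The mitofusins of the outer membrane overlapped between the groups. Mfn1 was at 202, 160.4, 154, and 142 CPM in NOR replicates 1 to 4 and at 144, 149, 106, and 149 CPM in CAC replicates 1 to 4. CAC replicate 3 lay below all other mice, and the other CAC mice lay within the NOR range. The log2 difference was -0.28 (SE 0.156, FDR = 0.280 by edgeR). Mfn2, which also tethers mitochondria to the endoplasmic reticulum, ranged from 371 to 479 CPM in NOR and from 334 to 434 CPM in CAC, with a log2 difference of -0.16 (SE 0.128, FDR = 0.467 by edgeR).

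Opa1, the fusion GTPase of the inner membrane, was lower by CPM in every CAC mouse than in every NOR mouse. By FPKM the groups overlapped, with CAC replicate 4 at 27.3 and NOR replicate 3 at 26.5 FPKM. Opa1 was at 116, 93.5, 90.9, and 93.2 CPM in NOR replicates 1 to 4 and at 81.9, 80.9, 64.1, and 87.2 CPM in CAC replicates 1 to 4. NOR replicate 1 and CAC replicate 3 stood outside the rest. The mean was 98.4 ± 11.8 CPM (SD, n = 4) in NOR and 78.5 ± 10.0 CPM in CAC, and the log2 difference of -0.33 (SE 0.129, 95% interval -0.63 to -0.04) did not pass the test (FDR = 0.126 by edgeR). The two-sided exact permutation test of 4 against 4 mice, on CPM, gave p = 0.0286, the smallest it can give.

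Oma1, the stress-activated protease of Opa1, was at 28.2, 22.8, 23.9, and 22.4 CPM in NOR replicates 1 to 4. In CAC replicates 1 to 4 it was at 17.6, 19.7, 13.98, and 18.3 CPM, so every CAC mouse was below every NOR mouse. The mean fell from 24.3 ± 2.64 to 17.4 ± 2.43 CPM, a log2 change of -0.49 (SE 0.135, 95% interval -0.80 to -0.18, FDR = 0.0461 by edgeR; exact permutation p = 0.0286). The call is close to its limit and was lost when any 1 mouse other than CAC replicate 2 was left out, with FDR between 0.0605 and 0.0998 by edgeR, and was kept without CAC replicate 2 (FDR = 0.0495). The log2 values of these 8 fits lay between -0.55 and -0.39. Within the C57BL/6 mice alone the log2 difference was -0.45 (FDR = 0.203 by edgeR) and within the BALB/c mice alone -0.49 (FDR = 0.299), each from 2 mice against 2. Yme1l1, the other protease, was higher in CAC mice by 0.15 on the log2 scale (SE 0.086, FDR = 0.302 by edgeR), from a range of 52.5 to 60.8 CPM in NOR to a range of 57.5 to 70.2 CPM in CAC, and did not pass the test.

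Dnm1l, which encodes the GTPase that cuts mitochondria, did not pass the test. It was at 46.4, 52.9, 42.5, and 51.8 CPM in NOR replicates 1 to 4 and at 42.2, 47.6, 28.9, and 36.7 CPM in CAC replicates 1 to 4, with the C57BL/6 mice of CAC inside or close to the NOR range and the BALB/c mice below it. The log2 difference was -0.32 (SE 0.146, FDR = 0.185 by edgeR). Fis1 was the nearest to no difference, at -0.02 on the log2 scale, with a 95% interval of -0.24 to 0.19, which leaves out the 1.5-fold limit on either side. Its range was 88.7 to 103 CPM in NOR and 84.8 to 102 CPM in CAC.

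None of the adaptors of Dnm1l protein passed the test, and they were not tested against each other. Mief2 was at 109, 81.1, 94.2, and 85.8 CPM in NOR replicates 1 to 4 and at 74.4, 80.4, 50.2, and 64.1 CPM in CAC replicates 1 to 4. No CAC mouse reached the lowest NOR mouse, though CAC replicate 2 came close to it. The log2 difference of -0.47 (SE 0.161, 95% interval -0.84 to -0.10) did not pass the test (FDR = 0.0904 by edgeR; exact permutation p = 0.0286). Its paralog Mief1 was at 0.14 (SE 0.112, FDR = 0.463 by edgeR) and Mff at -0.13 (SE 0.124, FDR = 0.537), both with overlapping groups.

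**Figure D2:**
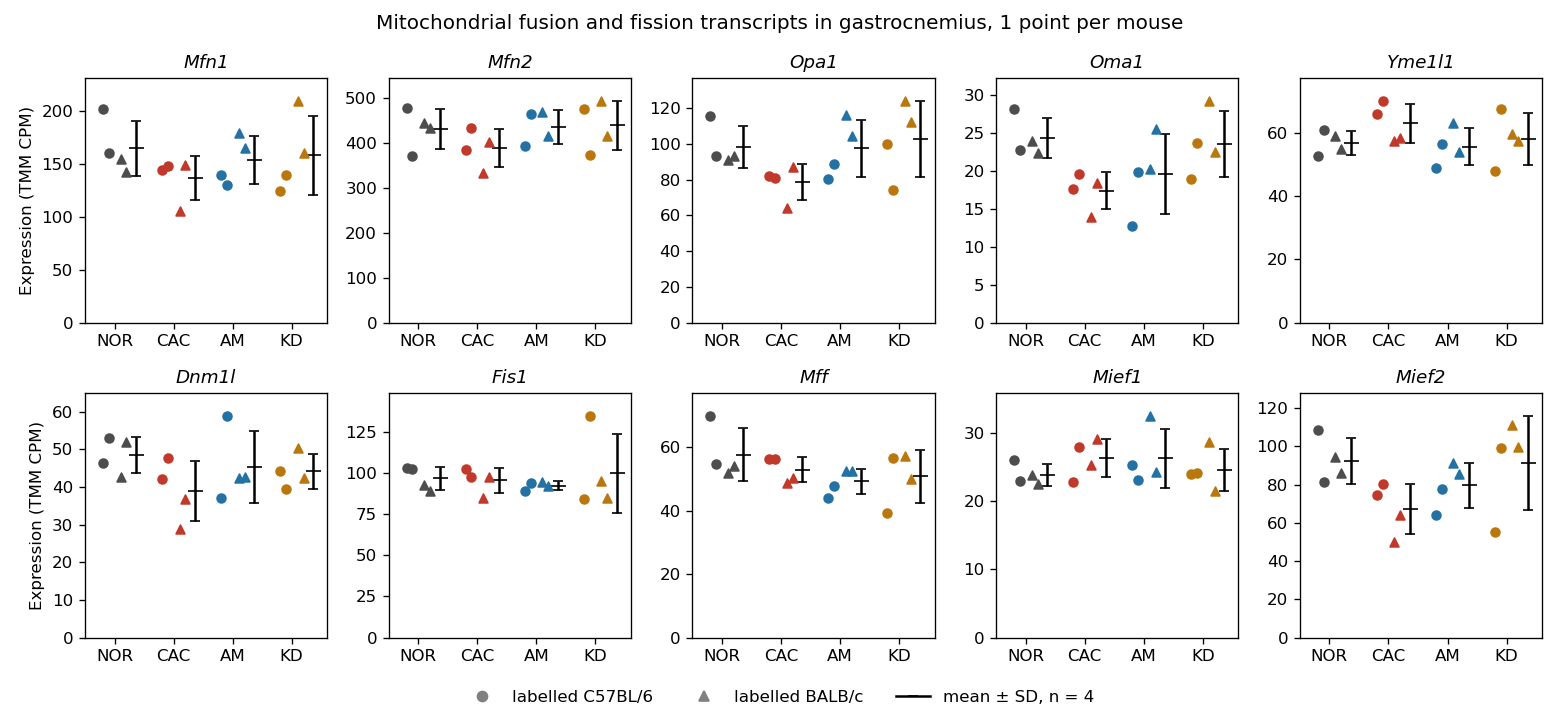
TMM CPM of each gene by group, 1 point per mouse (circles labelled C57BL/6, triangles labelled BALB/c), with the mean and SD of 4 mice as a bar. Opa1, Oma1, and Mief2 show CAC points wholly below NOR points, and CAC replicate 3 is the lowest CAC point for 9 of the 10 genes.

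By CPM, single mice stood at the end of their group for many of the 10 genes at once. CAC replicate 3 was the lowest CAC library for 9 of them (all but Mief1) and also had the lowest sum of skeletal muscle markers, at 45956 CPM against 74866 to 93237 CPM in the other CAC libraries. Its TMM factor, which divides all counts of a library, was 1.24, against 0.951 to 1.06 in the others of CAC. By FPKM, which has no such factor, it was lowest in CAC for Mfn1, Dnm1l, and Mief2 and highest for Yme1l1, Fis1, Mff, and Mief1. NOR replicate 1 (TMM factor 0.882) was the highest NOR library by CPM for 8 genes and had the highest sum of muscle markers. By FPKM it was highest for Mfn1, Opa1, Oma1, Mff, and Mief2 and lowest for Yme1l1 and Dnm1l. Without CAC replicate 3, the median of the 10 genes was -0.12 and without NOR replicate 1 it was -0.11, each with 3 genes higher and 7 lower. Marker sums of other cells also moved with the condition: neutrophil markers summed to 4.03 to 33.2 CPM in NOR and 99.9 to 225 CPM in CAC, erythrocyte markers to 1003 to 1375 and 3648 to 8722 CPM, and fibroblast markers to 3149 to 4112 and 922 to 1553 CPM. Their part in the differences of the 10 genes was not tested. In bulk RNA, fewer cells of a type and less RNA per cell cannot be told apart. When libraries were scaled by their total counts alone, the median of all genes moved to 0.14 and that of the 10 genes from -0.22 to -0.09. Of the 10 genes 6 were lower and 4 higher, with Fis1 and Mff changing sign.

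In AM relative to CAC muscle, 0 of the 10 transcripts passed the test with edgeR and 0 with DESeq2. Of all 14674 genes 4.98% passed with edgeR, and 1834 passed with DESeq2, 12.6% of those that it gave an FDR. At an unadjusted p below 0.05, 1 gene (Opa1) differed, against 21.7% of all genes. The differences ran from -0.18 (Yme1l1) to 0.32 (Opa1) on the log2 scale, with 6 genes higher and 4 lower and a median of 0.17, against 0.01 over all genes. The median was 0.08 without CAC replicate 3 or without AM replicate 4, and 0.11 without AM replicate 2. By CPM, all 10 overlapped between the groups, while 15.3% of all genes did not. By FPKM, Mff did not overlap, at 41.6 to 47.2 in CAC and 36.9 to 41.0 in AM, and the share of all genes was not counted. The sums of fibroblast markers did not overlap (922 to 1553 CPM in CAC, 2442 to 3495 CPM in AM), and those of skeletal muscle, neutrophil, and erythrocyte markers did; their part in these values was not tested. The AM and KD groups were each compared with the same CAC mice, so their differences are not independent of each other or of CAC relative to NOR.

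Opa1 was at 80.7, 88.9, 116, and 104.6 CPM in AM replicates 1 to 4. The BALB/c mice lay above every CAC mouse and the C57BL/6 mice lay inside or just above the CAC range, giving a log2 difference of 0.32 (SE 0.132, 95% interval 0.02 to 0.62, FDR = 0.207 by edgeR). Oma1 was at 12.8, 19.9, 20.3, and 25.6 CPM in AM, from below the lowest CAC mouse to above 3 of the 4 NOR mice. Its log2 difference was 0.18 with an interval of -0.28 to 0.63 (FDR = 0.675 by edgeR), which leaves the 1.5-fold limit inside the interval. Mief2 was at 64.1, 77.7, 91.0, and 85.5 CPM, with a log2 difference of 0.24 (SE 0.156, FDR = 0.421 by edgeR).

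The mitofusins were both at 0.17 on the log2 scale, with intervals of -0.15 to 0.49 for Mfn1 and -0.09 to 0.42 for Mfn2. Yme1l1 was at -0.18 (SE 0.1001, FDR = 0.350 by edgeR) and ranged from 48.9 to 63.1 CPM in AM. Of the fission genes, Mief2, given above, was at 0.24 and Dnm1l at 0.22, while Fis1 was at -0.05, Mff at -0.10, and Mief1 at -0.003. By CPM, AM replicate 1 (TMM factor 1.11) was the lowest AM library for 8 of the 10 genes and AM replicate 3 (factor 1.00) the highest for 8.

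In KD relative to CAC muscle, 0 of the 10 transcripts passed the test with edgeR and 0 with DESeq2. Here edgeR called 0.00685% of all 14593 genes, which is 1 gene, and DESeq2 called 399 genes, 2.86% of those that it gave an FDR. The comparison thus made few calls of any kind. At an unadjusted p below 0.05, 1 of the 10 (Oma1) differed, against 11.1% of all genes. The log2 differences ran from -0.12 (Yme1l1) to 0.43 (Mief2), with 7 genes higher and 3 lower and a median of 0.18, against 0.00 over all genes. Without CAC replicate 3 the median was 0.11. With total-count scaling it was 0.08 (6 higher, 4 lower), with all genes at -0.11. With limma on log2(FPKM + 0.1) or log2(FPKM + 1) it was 0.06 (6 higher, 4 lower), with all genes at -0.13 and -0.09. All 10 overlapped, while 7.29% of all genes did not.

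Oma1 was at 18.9, 23.6, 29.3, and 22.5 CPM in KD replicates 1 to 4, with 3 of the 4 mice above every CAC mouse. The log2 difference was 0.43 (SE 0.163, 95% interval 0.06 to 0.80, FDR = 0.384 by edgeR; exact permutation p = 0.0571). Opa1 was at 100.3, 74.2, 124, and 112.6 CPM, above every CAC mouse except in KD replicate 2, with a log2 difference of 0.38 (SE 0.174, FDR = 0.459 by edgeR). Mief2 was at 55.0, 99.0, 111, and 99.8 CPM, with KD replicate 1 inside the CAC range and the others above it (0.43, SE 0.233, FDR = 0.537 by edgeR). KD replicate 3, the library without Y-linked counts (TMM factor 0.881), was the highest KD library by CPM for 8 of the 10 genes. Without it the median was 0.10 and Oma1 was at 0.32. Fis1 was at 84.2, 135, 95.1, and 84.7 CPM in KD, with KD replicate 2 above all other mice of the study.

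The other genes stood nearer to CAC. On the log2 scale the mitofusins were at 0.21 (Mfn1, interval -0.22 to 0.64) and 0.17 (Mfn2, interval -0.18 to 0.52), and Dnm1l was at 0.18 (interval -0.19 to 0.54). Fis1 was at 0.06, Mff at -0.06, and Mief1 at -0.11, and the resting protease Yme1l1 was at -0.12. Only the interval of Oma1 left out 0, and those of Mfn1, Opa1, Oma1, and Mief2 reached past the 1.5-fold limit.

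**Figure D3:**
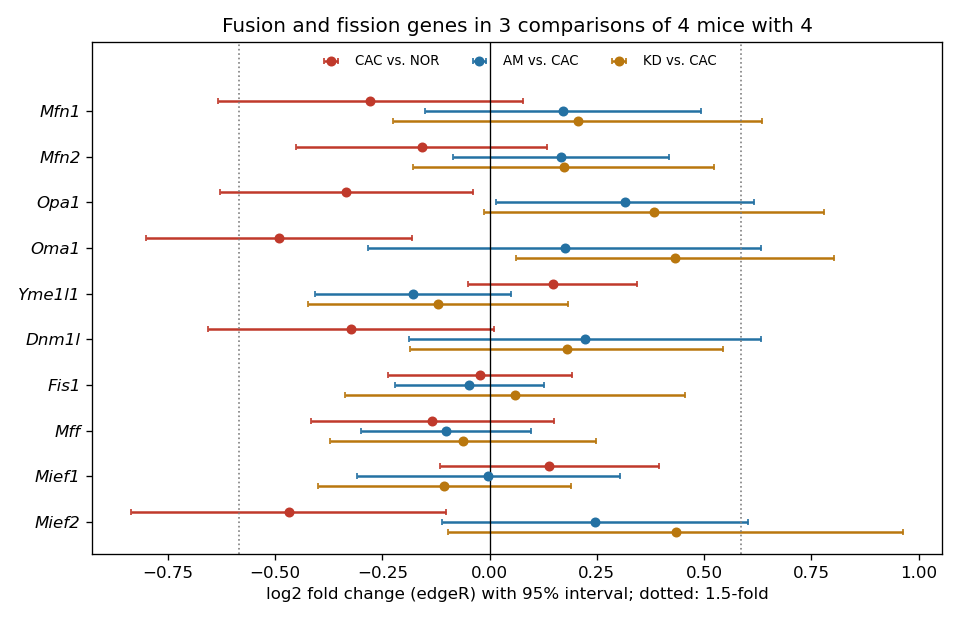
Log2 fold change with its 95% interval for each gene in CAC relative to NOR and in AM and KD relative to CAC, each 4 mice against 4 (edgeR); dotted lines mark the 1.5-fold limit. Oma1 in CAC vs. NOR lies at -0.49 with an interval of -0.80 to -0.18, and AM vs. CAC and KD vs. CAC share the CAC mice.

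Relative to NOR, 0 of the 10 genes passed the test in AM or in KD by edgeR, by an unadjusted p below 0.05, or by DESeq2. With edgeR these comparisons called 0 of 14738 and 0 of 14748 genes (0% of all genes in each), and 9.19% and 3.54% at the unadjusted limit. With DESeq2 they called 82 and 34 genes, 0.558% and 0.231% of those that it gave an FDR. In AM relative to NOR the median of the 10 was -0.08 and the values ran from -0.31 (Oma1, interval -0.74 to 0.13) to 0.15 (Mief1). In KD relative to NOR the median was 0.00 and the values ran from -0.18 (Mff) to 0.06 (Opa1, interval -0.32 to 0.45). AM relative to KD gave a median of -0.05, values from -0.26 (Oma1) to 0.10 (Mief1), and 0 calls among the 10 by edgeR, by DESeq2, or at the unadjusted limit, where edgeR called 0% of all genes (1.11% at the unadjusted limit) and DESeq2 called 1 gene. These medians depended on the libraries: with a lymphocyte score as a covariate, and without the libraries low in B cell markers, AM relative to KD was at 0.08 in both cases (7 genes higher, 3 lower, against 2 higher and 8 lower), and without KD replicate 3 at 0.02. It was at -0.13 without KD replicate 1, -0.12 without AM replicate 3, and -0.003 without AM replicate 1. AM relative to NOR was at -0.23 in C57BL/6 mice alone (1 higher, 9 lower) and 0.02 in BALB/c mice alone (6 higher, 4 lower), at -0.03 without AM replicate 1, and at -0.04 without NOR replicate 1. KD relative to NOR was at -0.11 with the lymphocyte score and at -0.14 without the libraries low in B cell markers. It was at -0.25 in C57BL/6 mice alone (3 higher, 7 lower) and at 0.08 in BALB/c mice alone (8 higher, 2 lower). Leaving out 1 mouse moved it between -0.08 (without KD replicate 3) and 0.06 (without NOR replicate 1). Total-count scaling put AM relative to KD at 0.02 and AM relative to NOR at -0.01, with all genes at 0.05 and 0.08. The interval of Oma1 in AM relative to NOR also holds the -0.49 of CAC relative to NOR, and a value that misses the test does not show that groups are alike.

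The labelled strains were compared within each condition. In AM relative to CAC, the median of the 10 genes was -0.11 in the C57BL/6 mice alone (3 higher, 7 lower) and 0.30 in the BALB/c mice alone (9 higher, 1 lower). Mief2 had the widest gap of the 10 here, at -0.11 in C57BL/6 and 0.61 in BALB/c, and the term for the difference between strains was 0.72 (SE 0.203, unadjusted p = 0.011, FDR = 0.335 by edgeR). Of 30 such terms over the 10 genes and 3 comparisons, 0 passed by FDR and 2 had an unadjusted p below 0.05 (Mief2 and Mff, both in AM relative to CAC). Over all genes in that comparison, 0 terms passed by FDR and 1821 of 14674 had an unadjusted p below 0.05. In KD relative to CAC the medians were -0.02 in C57BL/6 and 0.37 in BALB/c mice. In CAC relative to NOR they were -0.15 and -0.21. Strain and tumor line change together and cannot be told apart.

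Because each library holds both genes of a pair, ratios of FPKM within a library were also described, for pairs chosen after the values were seen and with no test. The ratio of Oma1 to Yme1l1, the pair of Opa1 proteases, was 1.32, 0.923, 0.995, and 1.00 in NOR replicates 1 to 4 and 0.658, 0.688, 0.598, and 0.772 in CAC replicates 1 to 4. Oma1 was thus near Yme1l1 in NOR and below it in each CAC mouse. The ratio was 0.644 to 1.17 in AM and 0.859 to 1.21 in KD, so KD mice did not overlap CAC mice and AM mice did. The ratio of Mief2 to Mief1 was 5.58 to 6.57 in NOR, 3.12 to 5.14 in CAC, 4.00 to 5.56 in AM, and 3.61 to 7.35 in KD. The ratio of Opa1, for inner membrane fusion, to Fis1 was 0.211 to 0.259 in NOR, 0.174 to 0.206 in CAC, 0.209 to 0.284 in AM, and 0.127 to 0.306 in KD. The ratio of both mitofusins, Mfn1 to Mfn2, was 0.509 ± 0.0692 in NOR and 0.466 ± 0.0351 in CAC.

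**Figure D4:**
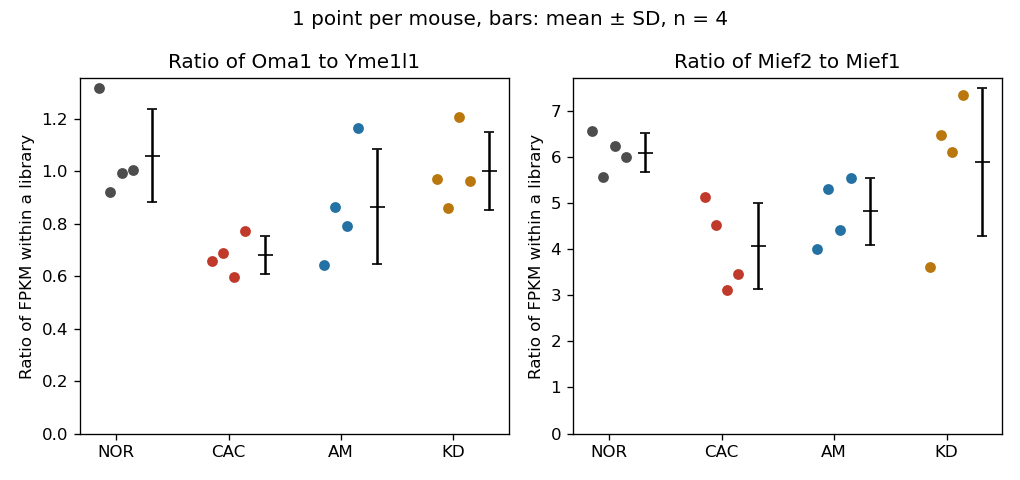
Ratio of the FPKM of Oma1 to Yme1l1 (left) and of Mief2 to Mief1 (right) within each library, 1 point per mouse by group, with the mean and SD of 4 mice as a bar. For Oma1 to Yme1l1, CAC mice lie at 0.598 to 0.772, below NOR mice at 0.923 to 1.32.

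Genes that act around this machinery were read from lists. Of 25 regulators of fusion, fission, and transport, 24 were in the table and 22 were tested, and in CAC relative to NOR 0 were higher and 5 lower by FDR, with a median of -0.09. Over all genes 6.17% were lower by FDR, and at an unadjusted p below 0.05 the regulators counted 11 of 22, against 29.1% of all genes. Mtfp1, an inner membrane protein that promotes fission, fell from 57.9 ± 9.49 to 24.7 ± 5.57 CPM (log2 change -1.24, SE 0.193, FDR = 0.00709 by edgeR). Trak1, an adaptor that links mitochondria to motor proteins, fell from 302 ± 41.3 to 162 ± 29.9 CPM (-0.91, SE 0.162, FDR = 0.0112). Mtfp1 was at 44.7 ± 11.1 CPM in AM and 47.5 ± 6.81 CPM in KD, and Trak1 at 238 ± 50.1 and 244 ± 48.6 CPM, and neither passed the test relative to CAC.

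In AM relative to CAC, 0 of the 22 regulators were higher and 2 lower, where 473 of all 14674 genes were lower by FDR. At the unadjusted limit 7 of 22 differed, against 21.7% of all genes, and the list held 12 positive and 10 negative differences with a median of 0.04. Phb2, a prohibitin that scaffolds the inner membrane and steadies Opa1 protein, fell from 166 ± 14.7 to 118 ± 5.68 CPM (log2 change -0.49, SE 0.0917, FDR = 0.0245 by edgeR). Stoml2, a further inner membrane scaffold, fell from 73.9 ± 5.11 to 55.5 ± 4.13 CPM (-0.41, SE 0.0800, FDR = 0.0273). The other 5 at the unadjusted limit were above CAC without passing: Mtfp1 (0.86), Trak1 (0.56), Trak2 (0.33), Gdap1 (1.96), and Phb (0.36, FDR = 0.135 by edgeR), the partner of Phb2 in the prohibitin complex. Fibroblast markers summed to 922 to 1553 CPM in CAC and 2442 to 3495 CPM in AM, and their part in these differences was not tested. In NOR Phb2 and Stoml2 were at 123 ± 16.9 and 61.7 ± 6.57 CPM, and the differences of CAC from NOR (0.42 and 0.25) did not pass the test. In KD relative to CAC, 0 regulators passed by edgeR, which called 1 gene in all, and 5 of 22 had an unadjusted p below 0.05, against 11.1% of all genes.

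**Figure D5:**
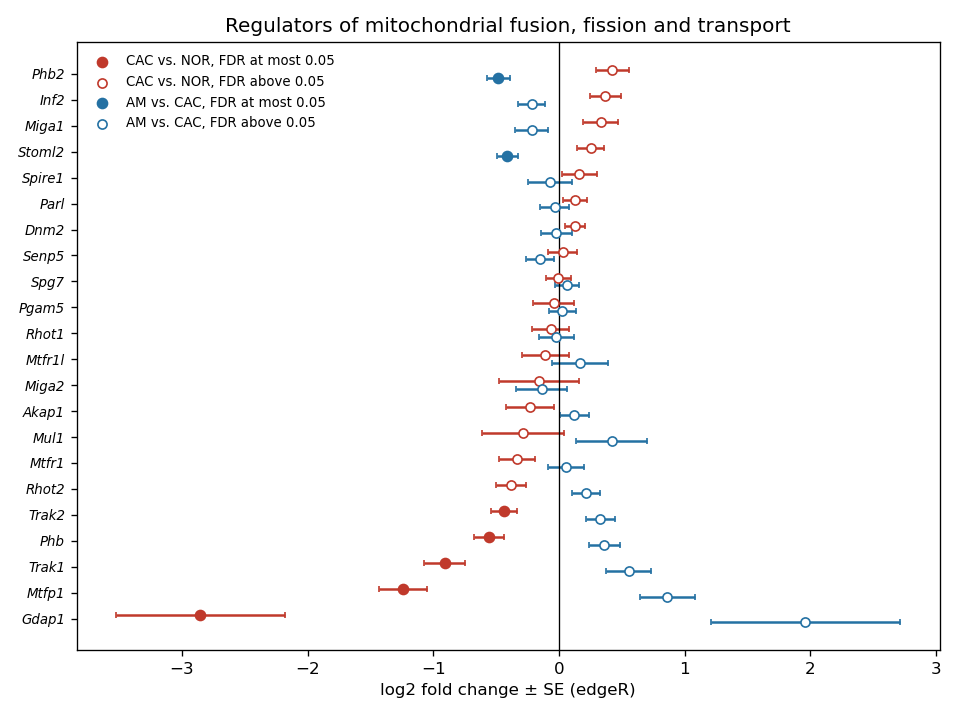
Log2 fold change with its SE (edgeR) of the 22 tested regulators in CAC vs. NOR and AM vs. CAC, 4 mice against 4, with filled points for an FDR of at most 0.05. In CAC vs. NOR 5 points are filled, all lower, and in AM vs. CAC 2 are filled, Phb2 and Stoml2.

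Genes of cristae organisation and of mitochondrial content serve as a measure of the organelle around these genes. Of 11 cristae genes, 0 passed by edgeR in CAC relative to NOR (1 at the unadjusted limit), with a median of -0.11. The 12 content genes went both ways, with 5 positive and 7 negative log2 differences, and 6 differed at the unadjusted limit, against 29.1% of all genes. By FDR 0 were higher and 1 lower, where 6.17% of all genes were lower: Cs, citrate synthase of the matrix, fell from 830 ± 112 to 537 ± 106 CPM (log2 change -0.64, SE 0.179, FDR = 0.0490 by edgeR), and the median of the list was -0.21, next to -0.22 for the 10 fusion and fission genes. Cs was at 781 ± 109.6 CPM in AM and 804 ± 102 CPM in KD, and did not pass relative to CAC. Whether the fusion and fission genes moved with the content of mitochondria was not tested. In AM relative to CAC, 0 genes of either list passed by edgeR (0 of 11 cristae and 5 of 12 content genes at the unadjusted limit), against 4.98% of all genes by FDR and 21.7% at the unadjusted limit, with medians of 0.03 and -0.01. In KD relative to CAC 0 passed, where 1 of 14593 genes did, and 0 and 1 differed at the unadjusted limit, against 11.1% of all genes, with medians of 0.11 and 0.13.

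The genes whose pattern over the 16 libraries was nearest to that of Mfn2, Dnm1l, and Fis1 were sought among 13162 genes, by the root mean square difference of centred log2 CPM. For Mfn2 they were Wdr59 (0.081), Vps26b (0.095), and Dip2c (0.098), against a median of 0.334 over all genes. For Dnm1l they were Ube2h (0.137), Reep5 (0.158), and Smad5 (0.159), against 0.375. For Fis1 they were Nol7 (0.070), Nsmce3 (0.071), and Nedd8 (0.076), against 0.325. The root mean square deviation of each gene from its own mean was 0.154 for Mfn2, 0.236 for Dnm1l, and 0.158 for Fis1.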

How the data were processed

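Gastrocnemius RNA-seq of 16 mice was used as deposited: raw counts of reads, as whole numbers for each gene, and FPKM values that the authors derived from them (implied gene lengths varied by at most 0.0881% between libraries over the 4270 genes checked). Per the labels, fastp, Bowtie2, HISAT2, and StringTie 1.3.1 were used, with builds mm9 and GRCm38, without their roles; the counting tool and annotation are not given in the sources used here. Of 21923 genes, 3719 had 0 counts everywhere. GENCODE M21 matched 21905 identifiers.

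Counts of the 2 groups compared (8 libraries) were fitted with edgeR 4.0.16 in R 4.3.3 (TMM, filterByExpr with a minimum count of 10 and total of 15, quasi-likelihood F test, Benjamini-Hochberg over all genes tested). NOISeq, the study's tool, was not used here. SE is the size of the log2 change divided by the root of F. For single genes CPM values were also compared by exact permutation (two-sided). The tests were tried on simulated counts. Replicates are separate mice as labelled. The 10 genes and all lists were chosen with earlier results of these data known. Named are the 10 genes, for each list the lowest 2 p-values per direction among those that passed in CAC vs. NOR and in AM vs. CAC, and 3 nearest genes by pattern (prior count 2, mean of at least 1 CPM). Marchf5, Xist, H2-Ea, and Trac were not analysed here. Alternatives were DESeq2 1.42.0, limma 3.58.1 on log2(FPKM + 0.1) or log2(FPKM + 1), limma-voom, other scalings, no filter, covariates, and subsets of mice. The lymphocyte score as a covariate and the fit without the 5 libraries below 5 CPM of B cell markers were added after the data were seen.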

Additional observations from a re-analysis of the deposited data

Results flagged for a closer look

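For each of the 10 genes in each group of 4 mice, the gap of the highest or lowest mouse to its nearest neighbour was set against the range of the group. In 2 of 40 gene and group pairs it exceeded Dixon's 95% limit for 4 samples, and chance alone gives about 1 in 20. Mfn1 in CAC replicate 3 was at 106 CPM, with the other CAC mice at 144 to 149 CPM (ratio 0.895). Opa1 in NOR replicate 1 was at 116 CPM, with the other NOR mice at 90.9 to 93.5 CPM (ratio 0.897). CAC replicate 3 had the lowest sum of skeletal muscle markers of all libraries (45956 CPM) and NOR replicate 1 the highest (125836 CPM). The part of these sums in both values was not tested. CPM also depends on the TMM factor, which was 1.24 for CAC replicate 3 and 0.882 for NOR replicate 1. By FPKM, which has no such factor, Mfn1 was at 63.58 in CAC replicate 3 and 66.44 to 76.23 in the other CAC mice. Opa1 was at 30.3 FPKM in NOR replicate 1 and 26.49 to 28.01 FPKM in the other NOR mice. The gap was not set against the limit on the FPKM scale. No strain difference in any of the 3 comparisons passed by FDR (0 of 30 by edgeR, 2 at an unadjusted p below 0.05).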

How the results depend on the processing

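The call of Oma1 in CAC vs. NOR depended on the settings, and its direction did not: its log2 value stayed between -0.56 and -0.34 and its FDR between 0.00785 and 0.299 over 23 alternatives, of which 13 lost the call. The number of the 10 genes that passed, 1 in the report, was 2 with total-count scaling, with DESeq2, and with limma on either FPKM scale (Oma1 and Mief2), and 3 with the lymphocyte covariate (Opa1, Oma1, and Mief2). The share of all 14666 genes called moved too, from 14.0% to 15.4% with total-count scaling and 17.3% with that covariate. DESeq2 called 3241 genes, 22.2% of those that it gave an FDR. With 0.1 and 1 added to FPKM, limma called 2342 and 2335 genes. The number of the 10 genes that passed was 0 with the fold limit, without a filter, and with the replicate number as a block. It was also 0 with all 16 libraries in 1 fit, in C57BL/6 or BALB/c mice alone, and without the libraries low in lymphocyte markers. Of all genes 9.45%, 10.7%, 9.71%, 10.4%, 1.69%, 0%, and 2.67% were called in these settings, in this order. Leaving out 1 mouse gave 0 to 1, with 5.68% (without NOR replicate 3) to 12.1% (without CAC replicate 4) of all genes called. The cause was not tested. In the other 5 comparisons the number was 0 under every alternative run. Replicate numbers did not pair the samples (correlations of deviations from -0.702 to 0.684, with 7 of 24 over 0.1), and with the replicate block Oma1 was at -0.49 (FDR = 0.0835 by edgeR) and the calls over all genes in AM vs. CAC went from 731 to 0.

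Signs of single genes were followed in the 3 comparisons given next. In CAC vs. NOR, Fis1 was at 0.10 with total-count scaling and on both FPKM scales and at 0.037 in BALB/c mice. Mff was at 0.00024 with total-count scaling, at 0.0018 on both FPKM scales, and at 0.0027 without the libraries low in lymphocyte markers. Total-count scaling moved the median of all genes from 0.01 to 0.14 in CAC vs. NOR and from 0.00 to -0.11 in KD vs. CAC. In AM vs. CAC, Mief1 was at 0.013 with RLE scaling and DESeq2, 0.0056 with the lymphocyte covariate, 0.043 with upper-quartile scaling, and 0.035 in BALB/c mice. In C57BL/6 mice alone Mfn1 was at -0.10, Oma1 at -0.18, and Mief2 at -0.11, and in BALB/c mice alone Fis1 was at 0.0076 and Mff at 0.056. Fis1 was at 0.0046 without the libraries low in lymphocyte markers. In KD vs. CAC, Fis1 was at -0.076 with total-count scaling, -0.086 on both FPKM scales, -0.046 in BALB/c mice, and -0.14 without the libraries low in lymphocyte markers. In C57BL/6 mice Mfn1 was at -0.12 and Dnm1l at -0.073, and in BALB/c mice Mff was at 0.090. Leaving out 1 mouse gave ranges of -0.070 to 0.037 for Fis1 in CAC vs. NOR, -0.11 to 0.059 for Mief1 in AM vs. CAC, -0.13 to 0.14 for Fis1 in KD vs. CAC, and -0.12 to 0.038 for Mff in KD vs. CAC. In the other comparisons signs were counted over the 10 genes: with the lymphocyte covariate AM vs. KD went from 2 higher and 8 lower to 7 and 3, and KD vs. NOR from 5 and 5 to 2 and 8. With 4 mice a group, smaller differences may not have been detectable.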
